A study of Mus musculus with 30 samples.

Results

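The cytochrome P450 family was examined in the jejunal mucosa of mice treated with exendin-4 (Ex-4), with keratinocyte growth factor (Fgf7) or with phosphate-buffered saline (PBS). Its members were taken as the genes whose symbol is Cyp followed by a digit, without the sterol synthesis gene Cyp51, each through the probe with the highest mean signal. This gave 86 genes of the 19057 on the array that had a symbol. RNA was measured on 30 Illumina bead arrays, 1 per sample, on which a log2 unit is a 2-fold change in a probe's fluorescence. The RNA came from the scraped lining of 2 cm of jejunum, the middle stretch of small bowel, of male C57BL/6 mice aged 11 to 12 weeks on a standard diet. The mice had not been fasted and no mutation is stated. A single dose of Ex-4, a peptide that activates the GLP-1 receptor, was given into the peritoneal cavity at 10 nmol/kg, with 3 samples taken at 1 h, 4 at 5 h and 3 at 20 h. Human recombinant Fgf7, a growth factor for epithelial cells, was given by the same route at 1 mg/kg, and PBS served as vehicle, each with the same times and numbers. Labels name the samples as replicates but do not say in words that each came from its own mouse, so p-values measure only the spread between these samples.

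P450 enzymes are heme proteins that insert an oxygen atom into fatty acids, sterols, bile acids, steroid hormones, retinoids and drugs. Members of the Cyp2 and Cyp3 families handle mainly foreign compounds and lipid mediators, the Cyp4 family hydroxylates the ends of fatty acids, and most of the remaining families make or break down a particular sterol, steroid or vitamin. In the small intestine P450s sit largely in the absorptive cells of the villus, where they act on drugs and dietary compounds before these reach the liver.

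For members whose start site RefSeq lists, the build GRCm38.p6 gives a window of 250 bases before the transcription start and 50 after it. Such a window existed for 62 of the 86 members and for 13 of the 15 that are described below as lower at 20 h after Ex-4. The 5 windows here belong to the members with the smallest p-values at that time and to Cyp2c55, a relative of Cyp2c65. Capitals mark the motifs that were searched for on both strands and found. The windows are at chr5:146009569-146009868 (minus strand) for Cyp3a25, chr19:39060756-39061055 (plus strand) for Cyp2c65, chr4:96591436-96591735 (minus strand) for Cyp2j9, chr5:145879805-145880104 (minus strand) for Cyp3a11 and chr19:39006769-39007068 (plus strand) for Cyp2c55, and each is written 5′ to 3′ on the gene's own strand.
Cyp3a25: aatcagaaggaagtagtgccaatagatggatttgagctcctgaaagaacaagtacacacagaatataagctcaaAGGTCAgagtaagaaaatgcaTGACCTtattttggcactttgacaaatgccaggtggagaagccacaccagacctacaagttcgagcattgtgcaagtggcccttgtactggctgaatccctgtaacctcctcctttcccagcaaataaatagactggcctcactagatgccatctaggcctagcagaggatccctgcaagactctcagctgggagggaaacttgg
Cyp2c65: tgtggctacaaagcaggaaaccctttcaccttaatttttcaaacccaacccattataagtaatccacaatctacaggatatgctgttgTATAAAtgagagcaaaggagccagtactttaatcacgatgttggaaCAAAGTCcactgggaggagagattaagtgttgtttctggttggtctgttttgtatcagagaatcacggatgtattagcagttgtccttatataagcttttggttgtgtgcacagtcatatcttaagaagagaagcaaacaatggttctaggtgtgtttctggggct
Cyp2j9: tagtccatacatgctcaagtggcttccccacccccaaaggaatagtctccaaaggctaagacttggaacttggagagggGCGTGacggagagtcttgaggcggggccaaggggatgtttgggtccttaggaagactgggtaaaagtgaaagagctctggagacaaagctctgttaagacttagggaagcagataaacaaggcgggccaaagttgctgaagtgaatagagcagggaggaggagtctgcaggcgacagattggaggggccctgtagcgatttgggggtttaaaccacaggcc
Cyp3a11: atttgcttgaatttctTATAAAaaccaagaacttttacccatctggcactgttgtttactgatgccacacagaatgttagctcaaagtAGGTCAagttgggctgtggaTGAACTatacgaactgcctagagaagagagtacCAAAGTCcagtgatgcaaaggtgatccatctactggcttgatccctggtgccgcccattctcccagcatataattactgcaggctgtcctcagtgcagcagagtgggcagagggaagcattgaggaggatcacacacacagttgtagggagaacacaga
Cyp2c55: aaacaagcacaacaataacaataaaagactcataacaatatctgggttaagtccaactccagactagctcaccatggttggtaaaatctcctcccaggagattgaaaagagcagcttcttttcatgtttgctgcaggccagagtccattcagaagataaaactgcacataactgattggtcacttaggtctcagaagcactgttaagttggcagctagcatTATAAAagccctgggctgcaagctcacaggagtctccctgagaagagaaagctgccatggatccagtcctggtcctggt

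The Cyp3a25 window holds AGGTCA, a half-site of nuclear receptors, at 176 bases before the start and again, on the other strand, at 155 bases before it. Cyp3a11 has AGGTCA at 162 bases and AGTTCA, on the other strand, at 142 bases before the start. It also has CAAAGTC, part of the site of Hnf4, at 109 bases and TATAAA at 234 bases before the start. In Cyp2c65, CAAAGTC lies 116 bases and TATAAA 162 bases before the start. Its window also holds the letters tatataag nearer to the start, which the search for exactly TATAAA left unmarked. Cyp2c55 has TATAAA at 29 bases before the start, where a TATA box usually lies. The Cyp2j9 window has GCGTG, the core that the aryl hydrocarbon receptor binds, at 171 bases before the start. Over all 27025 genes with a window, CAAAGTC was in 4.36% and was in 18 of the 62 P450 windows. TATAAA was in 14.2% of all windows and in 25 of the 62, AGGTCA in 16% and 17, AGTTCA in 14% and 9, and GCGTG in 32.5% and 14. TATGTAA and TACGTAA, letters of the D-box that the clock factors Dbp and Tef bind, were in 2.82% and 0.477% of all windows and in 0 of the 62. CACGTG, the E-box, was in 7.24% of all windows and in 2 of the 62, and TGACTCA, the AP-1 site, was in 5.17% and 3. Among the 13 members with a window that were lower at 20 h, CAAAGTC was in 3 and AGGTCA in 4, against 6 and 5 of the 24 other tested members with one. Each match is a description of these letters in a short window and names no site in use.

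Members differed in whether their probe signal stood above background. A dim level of 7.18 was set from the shape of the background signal, and 25 members lay above it on all 30 arrays, 25 on 3 to 29 arrays, 13 on 1 or 2 and 23 on none. The 50 members above it on at least 3 arrays entered the tests. Of these, 27 had a mean over the 30 arrays above 7.5 and belonged to the Cyp2, Cyp3, Cyp4 and Cyp27a groups, and the other 23 had means of 7.07 to 7.39, close to the dim level. The members at 0 of 30 arrays included Cyp7a1 and Cyp8b1, hepatic enzymes of bile acid synthesis, Cyp27b1, which activates vitamin D in the kidney, and Cyp1a1 and Cyp1a2, the classic targets of the aryl hydrocarbon receptor. A signal under the dim level sets an upper limit and does not show that a transcript is absent. By subfamily, 3 of 7 Cyp3a genes were tested, 8 of 13 Cyp2c, 3 of 5 Cyp2b, 4 of 8 Cyp2d, 2 of 7 Cyp2j, 7 of 9 Cyp4f, 2 of 2 Cyp4b, 3 of 4 Cyp4a and 3 of 3 Cyp2a genes. Among members near the dim level, Cyp11a1, the cholesterol side-chain cleavage enzyme, and Cyp20a1, a P450 of unknown substrate, were above it on 29 arrays each. Cyp24a1, which inactivates vitamin D, was above it on 21 arrays, Cyp11b2, the aldosterone synthase, and Cyp1b1 on 20 each, and Cyp39a1, an oxysterol hydroxylase, on 15. The retinoic acid hydroxylases Cyp26a1 and Cyp26b1 were above it on 11 and 7 arrays, the steroid hydroxylases Cyp17a1 and Cyp2a4 on 10 and 9, and the oxysterol hydroxylase Cyp7b1 and Cyp4a31 on 7 each. Close relatives within Cyp2b, Cyp2c, Cyp2d, Cyp3a and Cyp4f differ little in sequence, so which of them a probe measured is uncertain.

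The largest response of the family was at 20 h after Ex-4, where 3 of 3 tested Cyp3a, 4 of 8 Cyp2c, 2 of 3 Cyp2b, 3 of 4 Cyp2d and 1 of 2 Cyp2j genes were lower than after PBS. Of the 50 members tested, 15 fell and 0 rose at an adjusted p under 0.05 (limma with Benjamini-Hochberg adjustment over 13144 genes), against 1.29% of all genes that were lower and 1% that were higher. All 15 were among the 27 members of mean signal above 7.5, and at that signal 2.09% of 7991 genes were lower. The log2 difference of Ex-4 minus PBS was below 0 in 43 of the 50 members, with a median of -0.10, against 46.1% of all genes and a median of 0.01. Arrays of the groups did not overlap in 23 members, all lower after Ex-4, against 7.16% of all genes that were lower without overlap and 7.94% that were higher. In bulk RNA of this kind fewer cells of a type and less RNA per cell cannot be told apart.

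Markers of cell types were read beside these results. Of 15 markers of absorptive cells on the array, 13 lay above the dim level on all 30 arrays, while the probes of Fabp1 and Fabp2 exceeded it on 1 and 0 arrays. The mean of the 13, each relative to its own mean over all arrays, was -0.24 to -0.06 (log2) over the 3 arrays at 20 h after Ex-4 and -0.12 to 0.07 after Fgf7, against -0.07 to 0.08 after PBS, and 1 of the 13, the lactase gene Lct, was lower than after either PBS or Fgf7. Markers of T and intraepithelial lymphocytes, 4 tested, had means of -0.28 to -0.19 after Ex-4 and 0.01 to 0.08 after Fgf7, against -0.20 to 0.29 after PBS, and 0 passed. Of the hepatocyte list of 10, the 4 tested were Ttr, Cps1 and Serpina1c, above the dim level on all 30 arrays, and Fgg, above it on 23, while Alb, Fgb and Tat were above it on 0. The means of these 4 were -0.08 to 0.08 after Ex-4 and -0.18 to 0.15 after Fgf7, against -0.01 to 0.13 after PBS, and 0 passed. Against PBS, 1 of 6 goblet cell markers, Clca1, was higher after Ex-4 and 1 of 7 pancreatic acinar markers, Cela1, was lower, and against Fgf7 the goblet cell marker Muc2 was lower. Over all genes, 1.29% were lower and 1% higher after Ex-4 than after PBS. Against Fgf7 these shares were 1.12% and 0.639%. The goblet cell means were 0.05 to 0.07 after Ex-4 and 0.16 to 0.36 after Fgf7, against -0.18 to 0.10 after PBS, and the acinar means lay between -0.09 and 0.09 on all of these arrays. Of the 8 crypt, 5 Paneth cell, 3 B and plasma cell, 6 macrophage and 15 smooth muscle markers tested, 0 passed. The part of any of these lists in the P450 results was not tested. Smooth muscle signal was high on 4 arrays, with means of 0.93 and 1.24 on single Ex-4 and Fgf7 arrays at 5 h and of 2.10 and 2.09 on single PBS arrays at 1 h and 5 h, and on none at 20 h. Without these 4 arrays 13 members were lower at 20 h after Ex-4.

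Among the Cyp3a genes, 3 of 3 tested fell. Cyp3a11, held to be the mouse counterpart of the main human drug-metabolising P450, had log2 signals of 12.16, 12.43 and 12.86 after Ex-4, against 13.79, 14.02 and 13.75 after PBS at 20 h. Every Ex-4 array lay below every PBS array, and Cyp3a11 fell by 1.37 ± 0.20 (log2, SE), or 2.58-fold (adjusted p = 0.000102). Cyp3a25, its neighbour on chromosome 5, had 11.44, 12.15 and 11.74 after Ex-4, against 13.03, 13.16 and 13.22 after PBS. The groups were again apart, and Cyp3a25 fell by 1.36 ± 0.14 (log2, SE), or 2.56-fold (adjusted p = 1.03e-06). Cyp3a13, which lies apart from the cluster, had 14.38, 14.15 and 14.22 after Ex-4, against 14.59, 14.51 and 14.70 after PBS. These arrays also did not overlap, although the difference was small, and Cyp3a13 fell by 0.35 ± 0.07 (log2, SE), or 1.27-fold (adjusted p = 0.00502). Without replicate 3 of PBS its adjusted p was 0.0509. The remaining 4 Cyp3a genes, Cyp3a16, Cyp3a41b, Cyp3a44 and Cyp3a57 of the same cluster, were above the dim level on 0 arrays.

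In the Cyp2c group 4 of 8 tested genes fell and all 8 differences were below 0. Cyp2c55, which hydroxylates arachidonic acid, had the largest difference of the family on the deposited log2 scale, with log2 signals of 10.19, 10.76 and 10.61 after Ex-4, against 12.15, 12.59 and 12.59 after PBS at 20 h. The Ex-4 arrays were all far below the PBS arrays, and Cyp2c55 fell by 1.92 ± 0.30 (log2, SE), or 3.79-fold (adjusted p = 0.000306). Its neighbour Cyp2c65, also an arachidonic acid oxidase of the gut, had 12.92, 13.15 and 13.06 after Ex-4, against 13.83, 13.82 and 13.89 after PBS. Replicates were close together, and Cyp2c65 fell by 0.80 ± 0.09 (log2, SE), or 1.74-fold (adjusted p = 1.98e-06). Cyp2c23, a renal arachidonic acid epoxygenase, had 8.30, 8.60 and 8.22 after Ex-4, against 8.99, 8.94 and 8.99 after PBS. Its arrays did not overlap, and Cyp2c23 fell by 0.60 ± 0.13 (log2, SE), or 1.51-fold (adjusted p = 0.00764), but the adjusted p was 0.0571 without replicate 1 of Ex-4. Cyp2c29, a liver epoxygenase, had 7.06, 7.27 and 7.23 after Ex-4, against 7.93, 8.35 and 9.23 after PBS, so the Ex-4 arrays were near the dim level and the PBS arrays were widely spread. It fell by 1.32 ± 0.36 (log2, SE), or 2.49-fold (adjusted p = 0.0479), and passed in 1 of 6 fits that each left out 1 array, with adjusted p-values of 0.0242 to 0.291. After subtraction of the background signal (offset 16) the difference was -2.95, or 7.74-fold, and exceeded the -2.01 of Cyp2c55. With its Ex-4 arrays near the dim level, this value for Cyp2c29 rests on signals close to background and its size is uncertain. Cyp2c67 had 10.17, 10.67 and 10.82 after Ex-4, against 10.84, 11.09 and 11.59 after PBS, where an Ex-4 array and a PBS array nearly met. Its difference of -0.62 ± 0.22 did not pass (adjusted p = 0.182).

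In the Cyp2b group 2 of 3 tested genes fell, the other being near the dim level. Cyp2b10, the phenobarbital-inducible enzyme and a marker of the receptor CAR, had log2 signals of 12.34, 12.97 and 12.62 after Ex-4, against 13.24, 13.76 and 13.55 after PBS at 20 h. All Ex-4 arrays were below all PBS arrays, and Cyp2b10 fell by 0.87 ± 0.14 (log2, SE), or 1.83-fold (adjusted p = 0.000299). Cyp2b23, in the same cluster on chromosome 7, had 9.67, 10.16 and 10.27 after Ex-4, against 10.97, 11.64 and 11.19 after PBS. The gap between the groups exceeded the spread within them, and Cyp2b23 fell by 1.23 ± 0.19 (log2, SE), or 2.35-fold (adjusted p = 0.000275).

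Of the 4 Cyp2d genes tested, relatives of a human enzyme that oxidises many basic drugs, 3 fell. Cyp2d26 had log2 signals of 12.42, 12.69 and 12.57 after Ex-4, against 13.18, 13.36 and 13.16 after PBS at 20 h, with no overlap, and fell by 0.68 ± 0.10 (log2, SE), or 1.60-fold (adjusted p = 0.000144). Cyp2d10 had 9.74, 9.79 and 10.04 after Ex-4, against 10.42, 10.36 and 10.99 after PBS, with 1 PBS array well above the others and no overlap. It fell by 0.74 ± 0.17 (log2, SE), or 1.67-fold (adjusted p = 0.0168), and passed in 3 of 6 fits that left out 1 array. Cyp2d22 had 10.92, 11.15 and 10.73 after Ex-4, against 11.19, 11.36 and 11.30 after PBS, where the groups nearly touched. It fell by 0.35 ± 0.09 (log2, SE), or 1.27-fold (adjusted p = 0.0467), passed in 2 of those 6 fits, and its adjusted p reached 0.234. For Cyp2d40 the difference was -0.40 ± 0.15 and did not pass (adjusted p = 0.217).

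Single members of 3 other groups fell as well. Cyp2j9, which oxidises arachidonic acid and is best known from the brain, had log2 signals of 8.25, 8.74 and 8.30 after Ex-4, against 9.47, 9.53 and 9.70 after PBS at 20 h. The Ex-4 arrays all lay below the PBS arrays, and Cyp2j9 fell by 1.13 ± 0.16 (log2, SE), or 2.20-fold (adjusted p = 5.66e-05). Cyp4v3, the mouse counterpart of the fatty acid hydroxylase CYP4V2, had 13.23, 13.36 and 13.10 after Ex-4, against 13.64, 13.81 and 13.81 after PBS. These groups did not overlap, and Cyp4v3 fell by 0.52 ± 0.09 (log2, SE), or 1.44-fold (adjusted p = 0.00165). Cyp27a1, the mitochondrial sterol 27-hydroxylase, had 10.65, 11.24 and 11.24 after Ex-4, against 11.49, 11.98 and 11.82 after PBS, also apart. It fell by 0.72 ± 0.16 (log2, SE), or 1.65-fold (adjusted p = 0.00991), and passed in 3 of 6 fits that left out 1 array, with adjusted p-values of 0.00459 to 0.130.

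**Figure D1:**
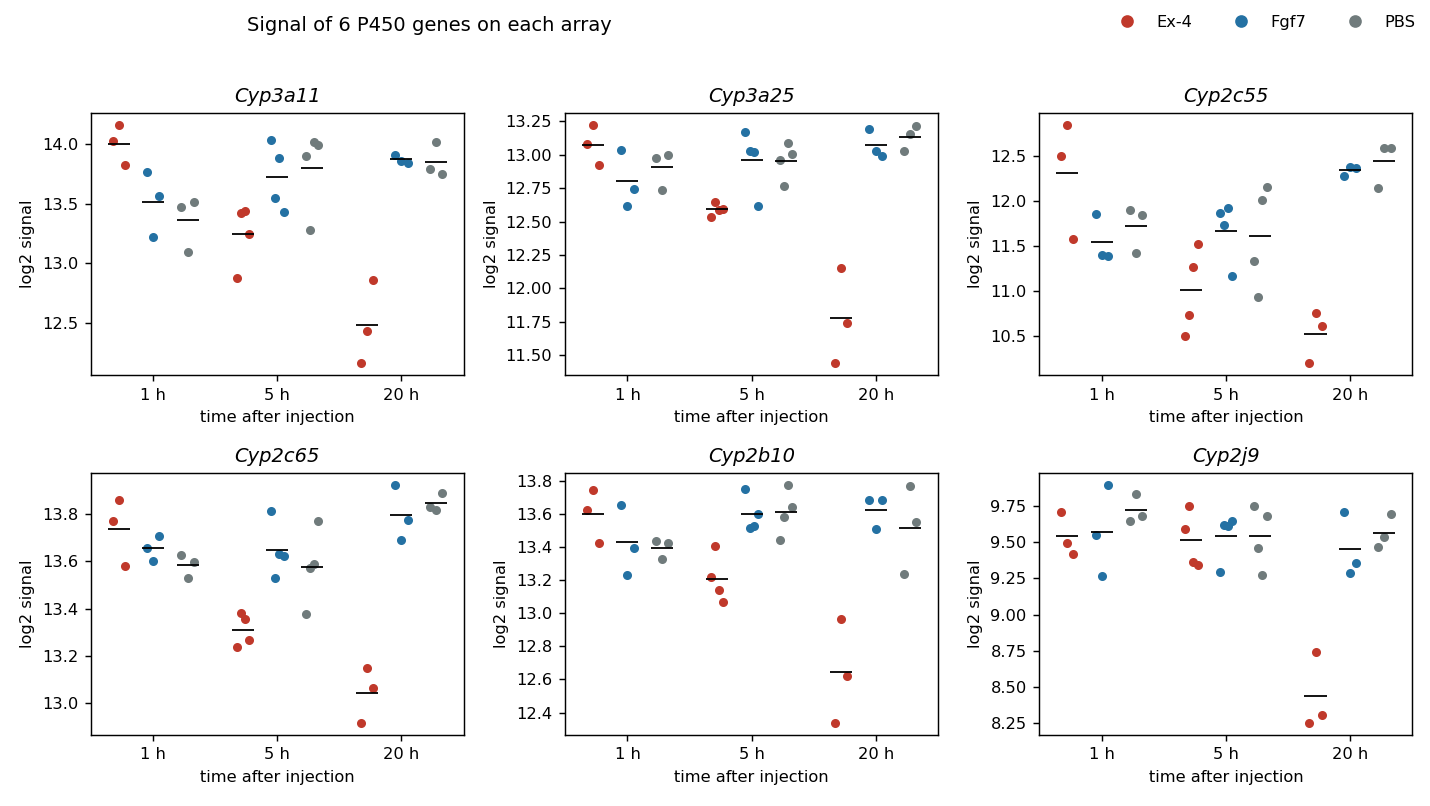
Log2 signal of 6 P450 genes on each of the 30 arrays, by time after injection, with Ex-4 left of Fgf7 and PBS; points are arrays and lines are group means. At 20 h the 3 Ex-4 arrays lie below all Fgf7 and PBS arrays in each of the 6 genes, and at 1 h the Cyp3a11 arrays after Ex-4 lie above those after PBS.

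Other expressed members did not pass at 20 h after Ex-4. The Cyp4f genes, which hydroxylate leukotrienes and fatty acids, had 7 tested members, all with differences below 0 and none that passed, from -0.19 to -0.04. Cyp4f14, the leukotriene B4 hydroxylase, had log2 signals of 14.48, 14.33 and 14.20 after Ex-4, against 14.47, 14.49 and 14.23 after PBS, which overlapped. Its difference was -0.06 ± 0.09 (adjusted p = 0.883). Cyp4b1 and the pseudogene Cyp4b1-ps2 next to it had differences of -0.28 and -0.25, with adjusted p-values of 0.495 and 0.577. Cyp2u1, a fatty acid hydroxylase, had -0.15 (adjusted p = 0.623). Cyp2s1, an epithelial P450, had a difference of 0.09 and Cyp2e1, the ethanol-inducible form, of 0.38, and these were the 2 members of mean signal above 7.5 whose differences were above 0. Their adjusted p-values were 0.718 and 0.461. None of the 23 members near the dim level passed, and a change of such a gene would be understated on this scale.

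**Figure D2:**
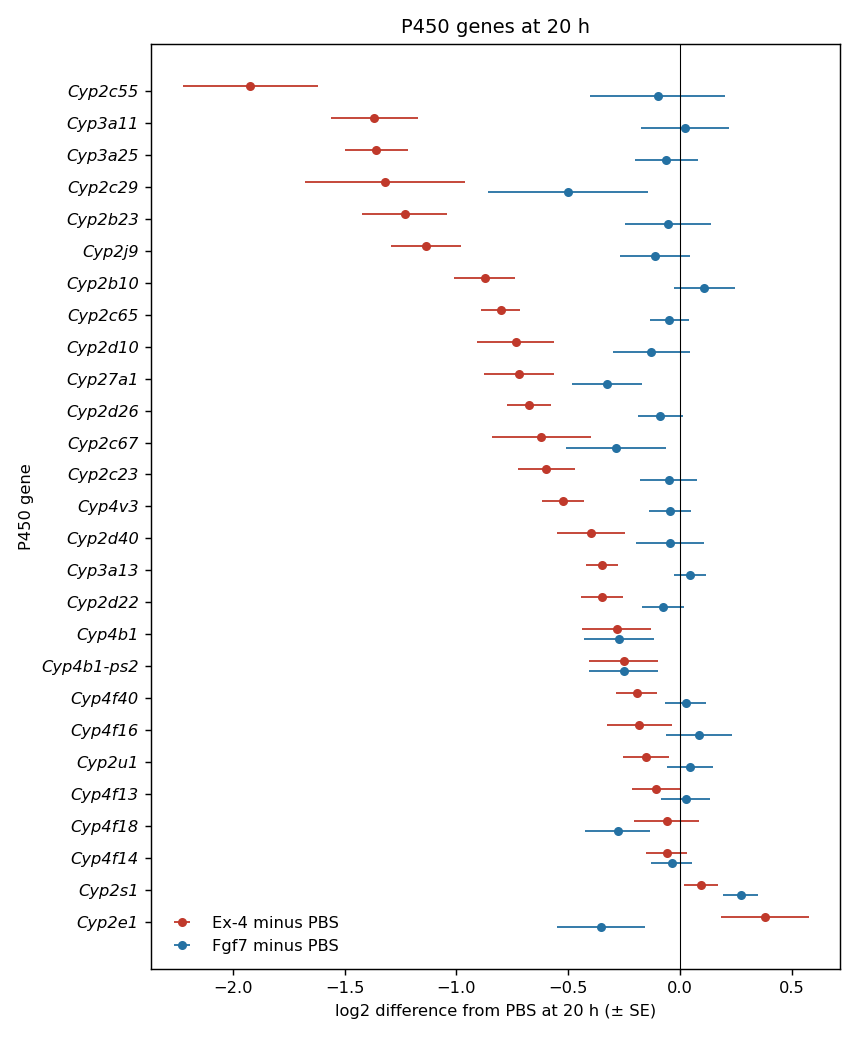
Log2 differences from PBS at 20 h (points) with standard errors (bars) for the 27 P450 genes of mean signal above 7.5, ordered by the difference after Ex-4; red is Ex-4 and blue is Fgf7. After Ex-4 25 of the 27 differences are below 0 and reach -1.92 for Cyp2c55, while after Fgf7 none passed.

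Some of the genes that fell lay in chromosomal clusters and some lay outside them, as did the tested members that did not fall. Genes were counted as neighbours when at most 6 genes apart in RefSeq's order. Of the genes that fell, Cyp27a1, Cyp2c23, Cyp3a13 and Cyp4v3 each lay apart from every other member. Over the family 15 of 50 tested members were lower, against 1.29% of all genes. Whether place on a chromosome went with the fall was not tested. The Cyp2c cluster on chromosome 19 holds 12 members, of which 7 were tested and 3 fell. On chromosome 5, 6 Cyp3a members lie together, with 2 tested and both lower. The Cyp2a and Cyp2b cluster on chromosome 7 holds 12 members, 7 of them tested and 2 lower. On chromosome 15 a block of 3 Cyp2d members had 2 tested and 2 lower, and a block of 5 had 2 tested and 1 lower. Of 7 Cyp2j members on chromosome 4, 2 were tested and 1 was lower. The Cyp4f blocks of 5 and 3 members on chromosome 17 had 4 and 2 tested and 0 lower, as had the block of 7 Cyp4a, Cyp4b and Cyp4x members on chromosome 4, with 5 tested.

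Where a gene had several probes, they were compared within the gene. Of the 15 genes that fell, 9 had more than 1 probe. Cyp2c65 had 4 probes above the dim level on all arrays, with differences of -0.80, -0.93, -1.23 and -1.32 from the brightest to the dimmest. Its brightest probe, used here, therefore gave the smallest difference. The same held for Cyp3a13, with -0.35, -0.51 and -0.70, and for Cyp2d26, with -0.68, -0.97 and -0.88. The 3 probes of Cyp27a1 gave -0.72, -0.59 and -0.71, and the 2 of Cyp2b10 gave -0.87 and -0.61. The dimmer Cyp2b10 probe, above the dim level on all 30 arrays, did not pass (limma over all probes, adjusted p = 0.182). Cyp2j9 had -1.13 on its brighter probe and -0.22 on a probe near the dim level. The probes of Cyp2d22 disagreed in direction, with -0.35 on the brighter and 0.09 on a probe of mean signal 7.25. Second probes of Cyp2b23 and Cyp2c29 were above the dim level on 0 arrays. Which transcripts these probes miss was not tested.

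**Figure D3:**
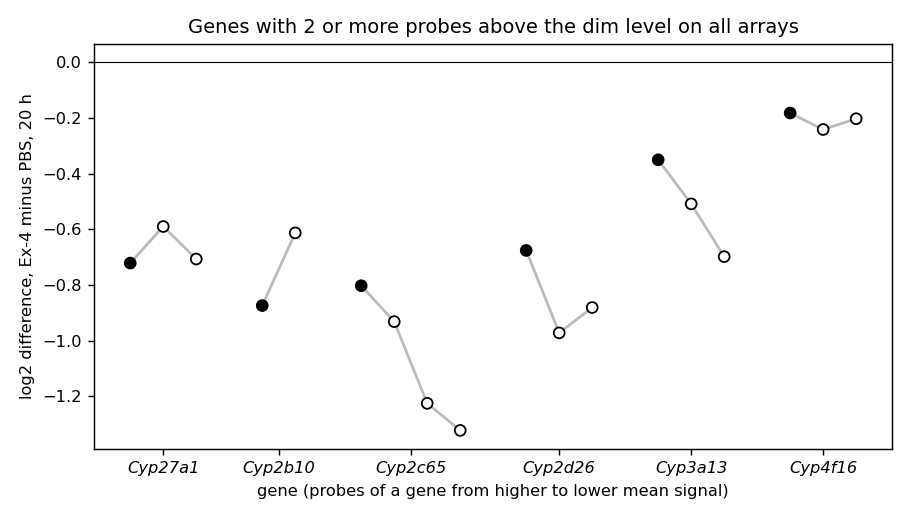
Log2 difference of Ex-4 minus PBS at 20 h for each probe of the 6 P450 genes with at least 2 probes above the dim level on all 30 arrays, from the brightest probe of a gene on the left to the dimmest; filled points are the probes used. All probes of these genes were below 0, and in Cyp2c65 the dimmer probes reached -1.32 against -0.80 for the one used.

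At 1 and 5 h after Ex-4 few members passed. At 5 h 1 of 50 fell and 0 rose, against 0.517% of all genes that were lower and 0.388% that were higher, and 12 had an unadjusted p under 0.05, 11 of them lower, against 11.3% of all genes. That gene was Cyp2s1, with log2 signals of 10.67, 10.78, 10.66 and 10.77 after Ex-4, against 11.13, 11.04, 11.04 and 11.09 after PBS. All Ex-4 arrays were below all PBS arrays, and Cyp2s1 fell by 0.36 ± 0.07 (log2, SE), or 1.28-fold (adjusted p = 0.00639). Without the 4 arrays with high smooth muscle signal it did not pass (adjusted p = 0.0542). Cyp2c65 had 13.24, 13.38, 13.35 and 13.27 after Ex-4, against 13.38, 13.57, 13.59 and 13.77 after PBS. The groups overlapped, and the difference of -0.27 ± 0.08 did not pass (adjusted p = 0.104), though it did without replicate 1 of PBS (adjusted p = 0.0392). For Cyp2b10 the difference was -0.40 (adjusted p = 0.118) and for Cyp3a11 it was -0.55 (adjusted p = 0.143). Of the 15 genes lower at 20 h, 14 had a difference below 0 at 5 h, from -0.60 to 0.09, and 0 passed. This stands beside 22 of the 27 members of mean signal above 7.5 that were below 0 at 5 h, and 50.4% of all genes at that signal.

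At 1 h after Ex-4, 0 of 50 members passed, as did 0% of all genes, and 1 member had an unadjusted p under 0.05, against 2.92% of all genes. That was Cyp3a11, with log2 signals of 14.03, 14.16 and 13.82 after Ex-4, against 13.48, 13.09 and 13.52 after PBS. Its Ex-4 arrays were all above its PBS arrays, and the difference was 0.64 ± 0.20 (adjusted p = 1.00). Cyp2c55 had 12.50, 12.84 and 11.58 after Ex-4, against 11.90, 11.42 and 11.84 after PBS, with overlap, and a difference of 0.59 ± 0.30 (adjusted p = 1.00). Cyp2c65 had the next smallest p, with a difference of 0.15 ± 0.09. Of the 15 genes lower at 20 h, 3 were below 0 at 1 h, and the median difference of the 15 was 0.14. Of the 27 members of mean signal above 7.5, 10 were below 0 at 1 h, against 47.6% of all genes at that signal.

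Whether the response to Ex-4 differed between the times was tested with the difference of the Ex-4 effects, each against its own PBS group. Between 20 h and 5 h, 4 of 50 members passed, 3 lower and 1 higher, against 0.464% lower and 0.487% higher of all genes. The effect at 20 h was lower than at 5 h by 0.99 ± 0.19 for Cyp3a25 (log2, SE; adjusted p = 0.00541), by 1.11 ± 0.21 for Cyp2j9 (adjusted p = 0.00547) and by 0.54 ± 0.12 for Cyp2c65 (adjusted p = 0.0184). For Cyp2s1 it was higher by 0.45 ± 0.10 (adjusted p = 0.0230), with differences from PBS of 0.09 at 20 h and -0.36 at 5 h, but it passed in 10 of 14 fits that left out 1 array and lost the call under 3 of 9 other settings, with adjusted p-values of up to 0.113. Cyp2c65 passed in 12 of those 14 fits and under 7 of the 9 other settings. Between 20 h and 1 h, a comparison added after the values at 1 h had been seen, 8 members passed, all lower, against 0.388% of all genes that were lower and 0.122% that were higher. The difference of effects was -2.51 ± 0.43 for Cyp2c55 (adjusted p = 0.00271) and -2.01 ± 0.28 for Cyp3a11 (adjusted p = 0.000172). The other 6 were Cyp3a25, Cyp2c65, Cyp2b10, Cyp2b23, Cyp3a13 and Cyp2j9, from -1.53 to -0.46. Of these, Cyp2j9 passed in 1 of 12 fits that left out 1 array, with adjusted p-values of up to 0.161, and Cyp3a13 in 5 of 12, with up to 0.109. Between 5 h and 1 h, 0 passed, against 0.129% of all genes, and 9 had an unadjusted p under 0.05, against 7.1% of all genes. The lowest adjusted p was 0.0667, for Cyp3a11, with a difference of effects of -1.19 ± 0.26, and the next were 0.278 for Cyp2c65 and 0.356 for Cyp2b10. Both comparisons with 20 h share the arrays of that time.

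Between the PBS groups no member passed. From 1 h to 5 h, from 1 h to 20 h and from 5 h to 20 h, 0 members and 0% of all genes passed, and 5, 3 and 5 members had an unadjusted p under 0.05, against 5.49%, 4.27% and 4.33% of all genes. Cyp2c65 had 13.83, 13.82 and 13.89 at 20 h, 13.38, 13.57, 13.59 and 13.77 at 5 h and 13.63, 13.53 and 13.60 at 1 h after PBS. Its signal at 20 h exceeded that at 5 h by 0.27 ± 0.08 (adjusted p = 0.793) and that at 1 h by 0.26 ± 0.09 (adjusted p = 1.00). Cyp2c55 had 12.15, 12.59 and 12.59 at 20 h and 11.33, 10.94, 12.01 and 12.15 at 5 h, a difference of 0.84 ± 0.28 (adjusted p = 1.00). Cyp3a11 had a difference of 0.49 ± 0.20 between 20 h and 1 h. Between 5 h and 1 h the smallest p-values were those of Cyp3a11, with 0.44, Cyp4f14, with 0.19, and Cyp2b19, a skin P450, at least 1.03-fold higher at 5 h. These PBS values enter the differences of the Ex-4 effects above.

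After Fgf7, in comparisons that share the PBS arrays with those of Ex-4, 0 of 50 members passed at 1 h, 5 h or 20 h, and 1, 2 and 5 members had an unadjusted p under 0.05, against 7.59%, 6.85% and 4.02% of all genes. Of all genes, 0.00761% passed at 1 h, 0.213% at 5 h and 0.0456% at 20 h. At 20 h the smallest p belonged to Cyp2s1, with log2 signals of 11.25, 11.36 and 11.25 after Fgf7, against 10.91, 11.11 and 11.03 after PBS. The Fgf7 arrays were all higher, and the difference was 0.27 ± 0.08 (adjusted p = 0.825). Cyp2c70, which makes muricholic acids in mouse liver, was at least 1.05-fold higher (adjusted p = 0.999) and Cyp2a12, a bile acid hydroxylase of mouse liver, at least 1.02-fold lower (adjusted p = 0.999), both with 1 group below the dim level on all arrays. At 5 h the smallest p-values were those of Cyp2a12, at least 1.01-fold higher, Cyp2s1, with a difference of -0.14, and the oestrogen hydroxylase Cyp1b1, with 0.14, at adjusted p-values of 0.549 to 0.746. At 1 h they were those of Cyp7b1, Cyp39a1 and Cyp11a1, sterol enzymes near the dim level, at adjusted p-values of 0.635 to 0.688. The difference of the Fgf7 effects between 20 h and 5 h passed in 0 members and 0% of all genes, with 6 members at an unadjusted p under 0.05, against 3.68% of all genes. The 3 smallest p-values there were those of Cyp2s1, Cyp2a12 and Cyp2c70, all with an adjusted p of 1.00. For Cyp3a11 at 20 h the Fgf7 difference was 0.02 ± 0.20.

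**Figure D4:**
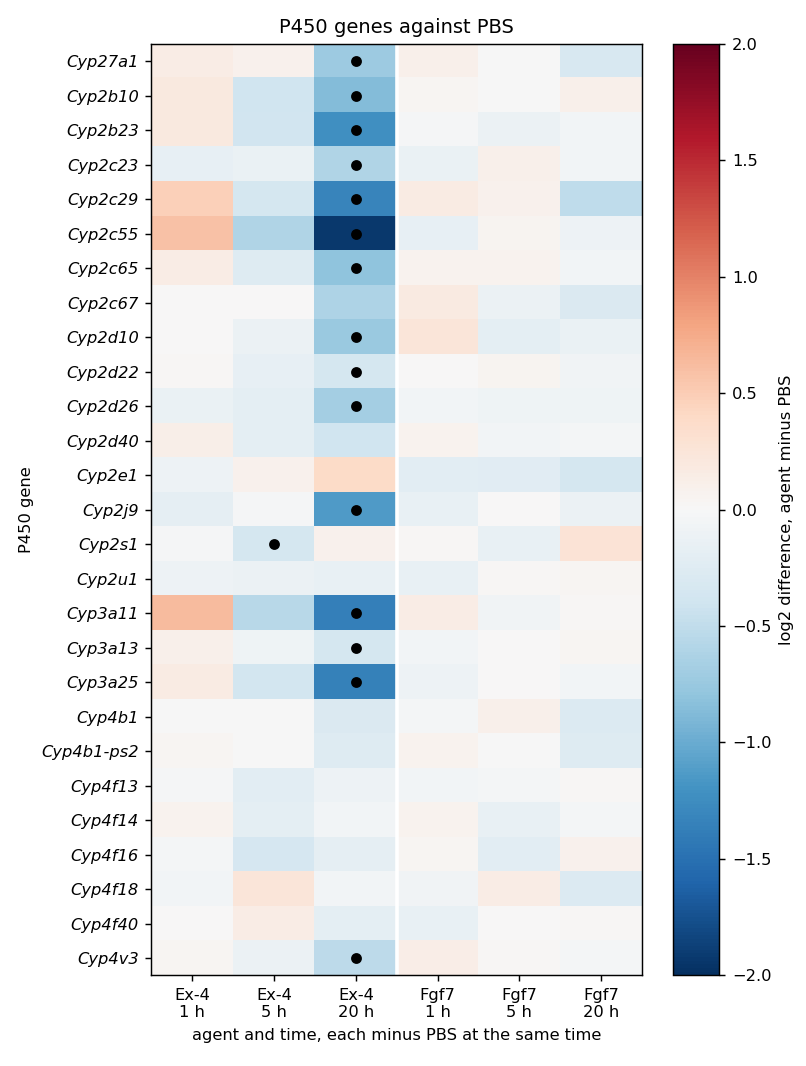
Log2 difference from PBS at the same time for the 27 P450 genes of mean signal above 7.5, in columns for Ex-4 and then Fgf7 at 1, 5 and 20 h; blue is lower, red is higher and dots mark an adjusted p under 0.05. The column of Ex-4 at 20 h carries 15 dots, that of Ex-4 at 5 h carries 1, for Cyp2s1, and the others none.

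The agents were also set against each other, in comparisons that share the Ex-4 arrays with those above. At 20 h after Ex-4 against Fgf7, 12 of 50 members were lower and 0 higher, against 1.12% and 0.639% of all genes. Under 4 of 9 other settings Cyp2e1 passed as higher. Of these 12, 11 were also among the 15 lower than PBS (91.7% of the 12 and 73.3% of the 15). Cyp3a25 had 11.44, 12.15 and 11.74 after Ex-4, against 13.19, 13.03 and 12.99 after Fgf7. The groups did not overlap, and the difference was -1.30 ± 0.14 (adjusted p = 1.97e-06). Cyp2c55 had 10.19, 10.76 and 10.61 after Ex-4, against 12.28, 12.38 and 12.37 after Fgf7, and its difference was -1.82 ± 0.30 (adjusted p = 0.000510). Cyp2b10 had 12.34, 12.97 and 12.62 after Ex-4, against 13.68, 13.51 and 13.68 after Fgf7, with a difference of -0.98 ± 0.14 (adjusted p = 6.43e-05). The other shared genes had differences from -1.39 for Cyp3a11 to -0.39 for Cyp3a13. Cyp27a1, Cyp2d10, Cyp2d22 and Cyp2c29 passed against PBS and not against Fgf7, where their adjusted p-values were 0.334, 0.0715, 0.200 and 0.421. Cyp2c70 was at least 1.05-fold lower (adjusted p = 0.0163), with 0 of 3 Ex-4 arrays above the dim level. It passed in 3 of 6 fits that left out 1 array, with adjusted p-values of up to 0.118, as did Cyp2c23 in 3 of 6, with up to 0.201. Cyp2e1 had 8.02, 8.38 and 7.41 after Ex-4, against 7.17, 7.42 and 7.02 after Fgf7, which overlapped, with a difference of 0.73 ± 0.20 (adjusted p = 0.0536). At 5 h 1 of 50 members was lower and 0 higher, against 0.335% and 0.221% of all genes. It was Cyp2c65, with 13.24, 13.38, 13.35 and 13.27 after Ex-4, against 13.81, 13.53, 13.63 and 13.62 after Fgf7. The arrays did not overlap, and the difference was -0.34 ± 0.08 (adjusted p = 0.0342), but it passed in 2 of 8 fits that left out 1 array and not once the 4 arrays rich in smooth muscle signal were left out. Cyp2b10 and Cyp2s1 had the next smallest p-values, with differences of -0.39 and -0.21 and adjusted p-values of 0.168 and 0.181. At 1 h, 0 members and 0.00761% of all genes passed, with 5 members, against 5.74% of all genes, at an unadjusted p under 0.05. The lowest adjusted p was 0.823, for Cyp2c55, with a difference of 0.76 ± 0.30, and the differences of Cyp3a11 and Cyp3a13 were 0.49 and 0.16.

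Genes that work with P450s were read from lists of 21 genes of conjugation and efflux, 27 receptors and factors, 9 electron donors and 12 genes of heme metabolism. At 20 h after Ex-4, 8 of 19 tested genes of conjugation and efflux were lower than after PBS and 0 higher, against 1.29% and 1% of all genes. Ephx1, the microsomal epoxide hydrolase, fell by 1.71 ± 0.20 (log2, SE; adjusted p = 5.43e-06), or 3.27-fold. Ces1d, a carboxylesterase, fell by 1.20 ± 0.22 (log2, SE; adjusted p = 0.00180). Adh1, an alcohol dehydrogenase, fell by 0.78 ± 0.13 (log2, SE; adjusted p = 0.000523), and Abcc2, an efflux pump for conjugates, fell by 0.65 ± 0.11 (log2, SE; adjusted p = 0.000804). Ephx2, Aldh1a7, Aldh1a1 and Sult1d1 were the other 4. Of 22 receptors and factors known to regulate P450 genes, 2 were lower and 0 higher, beside that same background. Dbp, a clock-controlled factor, fell by 2.12 ± 0.24 (log2, SE; adjusted p = 3.64e-06), or 4.35-fold, and its relative Tef fell by 0.91 ± 0.18 (log2, SE; adjusted p = 0.00408). Among 6 electron donors tested, 0 passed and 5 were below 0, with Cyb5a, cytochrome b5, at -0.34 ± 0.10 (adjusted p = 0.0621). Against Fgf7 Cyb5a fell by 0.46 ± 0.10 (log2, SE; adjusted p = 0.00736). Of 10 genes of heme synthesis and breakdown, 1 was higher and 0 lower, against 1% and 1.29% of all genes. This was Alad, an early enzyme of heme synthesis, at 0.36 ± 0.08 (adjusted p = 0.00943). After Fgf7 at 20 h, 0 genes of these 4 lists passed.

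**Figure D5:**
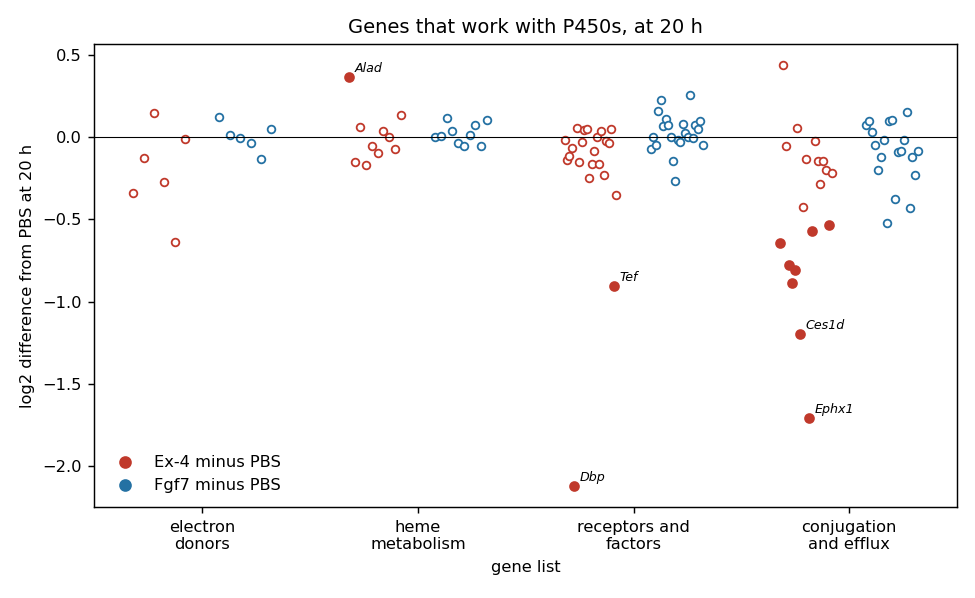
Log2 difference from PBS at 20 h of the genes in 4 lists, with Ex-4 (red) left of Fgf7 (blue) in each; filled points passed at an adjusted p under 0.05 and open points did not. After Ex-4 8 genes of conjugation and efflux and 2 of the receptors and factors (Dbp and Tef) were lower and Alad was higher, while all points after Fgf7 are open.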

How the data were processed

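The deposited table gave log2 signals for 45281 probes on 30 arrays. The sources used here do not say how the authors made these log2 values. Values of equal rank differed between arrays by an SD of at most 0.00218, as quantile normalisation gives. A further 60 columns whose headings name no sample were not used. Probes were named through the platform annotation, which gave 34885 probes 1 symbol, 18 several and 10378 none. All 86 P450 genes matched RefSeq by gene ID. The dim level was placed where 1% of a normal background (mode 7.02, SD 0.0714, from the signals below the mode) would exceed it. A probe entered the tests if at least 3 arrays exceeded that level, and the probe of highest mean stood for its gene. A linear model with 9 group means was fitted over 13144 genes with limma 3.58.1 in R 4.3.3, with moderated variances (prior df 4.61, residual df 21) and Benjamini-Hochberg adjustment over all genes, passing meaning an adjusted p under 0.05. The number of arrays limits the precision. A fold against a group with no array above the dim level was taken against that level and is given as "at least". Log2 differences of genes near the dim level understate the change.

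Members, lists and comparisons were chosen with earlier results of these data known. Named genes were the members that passed, up to 30 per comparison by p, or the 3 with the smallest p where fewer than 3 passed, and in each subfamily with tested members the one of highest mean. The fit was also run on simulated arrays with independent noise, which leave out any likeness between samples of the same replicate number. Alternatives were other filters, variance settings, a background subtraction, a replicate block, left-out arrays and a smooth muscle covariate.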

Additional observations from a re-analysis of the deposited data

Results flagged for a closer look

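Some arrays stood far from the others of their group by Dixon's test, applied here to the groups of 4 samples, at 5 h. This held in 6 of 102 sets, of 34 genes and 3 groups, and chance alone gives about 5% of sets. Cyp2c29 read 7.998 on replicate 4 of Ex-4, against 7.49 to 7.56 on the other Ex-4 arrays, and Cyp2c67 read 11.39 on that same array, against 10.77 to 10.84. On replicate 1 of Ex-4, an array of high smooth muscle signal, Cyp2e1 read 8.25, against 7.28 to 7.44, and Cyp7b1 read 7.24, against 7.12 to 7.13. Cyp2j9 read 9.29 on replicate 1 of Fgf7, against 9.61 to 9.65, and Cyp3a11 read 13.28 on replicate 2 of PBS, against 13.90 to 14.02.

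The effect of Ex-4 differed between times in several members, by a test of the difference itself. Between 20 h and 5 h the log2 difference of effects was -0.99 for Cyp3a25, -1.11 for Cyp2j9, -0.54 for Cyp2c65 and 0.45 for Cyp2s1. Between 20 h and 1 h, a comparison added after the data were seen, it was -0.95 for Cyp2c65, -1.53 for Cyp3a25, -2.01 for Cyp3a11, -2.51 for Cyp2c55, -1.07 for Cyp2b10, -1.43 for Cyp2b23, -0.46 for Cyp3a13 and -0.95 for Cyp2j9. Here Cyp2j9 passed in 1 of 12 fits that left out 1 array and Cyp3a13 in 5 of 12. Between 20 h and 5 h, Cyp2s1 passed in 10 of 14 such fits and Cyp2c65 in 12 of 14.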

How the results depend on the processing

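No called difference of a named member changed sign under any alternative run. The 15 members lower at 20 h after Ex-4 against PBS became 7 when the fit held only the groups compared, which leaves fewer arrays to estimate the spread, and 13 to 16 under the other settings that kept every 20 h array. That fit left 0 members at 5 h against PBS, 0 at 5 h against Fgf7 and 2 for the difference of effects between 20 h and 5 h. With the 4 arrays rich in smooth muscle signal left out, 0 members passed at 5 h against PBS and 0 against Fgf7. After background subtraction 0 passed at 5 h against Fgf7, and 2 for the difference of effects between 20 h and 5 h, and the cause was not tested. Leaving out 1 array at a time gave 10 to 16 members at 20 h against PBS, with the lowest count without replicate 1 of Ex-4, 10 to 13 against Fgf7, 1 to 2 at 5 h against PBS and 0 to 1 against Fgf7. It gave 2 to 6 for the difference between 20 h and 5 h, lowest without replicate 1 of Ex-4 at 20 h, 6 to 9 for that between 20 h and 1 h, and 0 for Fgf7, PBS and Ex-4 at 1 h. Of the 15, Cyp3a13, Cyp2c23, Cyp27a1, Cyp2d10, Cyp2d22 and Cyp2c29 lost significance in at least 1 of these fits. All of these also lost it when the fit held only the groups compared. Cyp2d22 and Cyp2c29 lost it under further settings and passed in only 3 and 4 of 9. Cyp2b10 and Cyp4v3 lost it in that fit too, with adjusted p-values of 0.104 and 0.0595. For the difference between 20 h and 1 h, 6 members passed with the smooth muscle covariate. Leaving out the 4 arrays rich in smooth muscle signal also gave 6. Both settings lost the calls of Cyp2j9 and Cyp3a13. The call of Cyp2j9 was also lost with the replicate block and without the filter on dim probes. That of Cyp3a13 was also lost with only the groups compared and after background subtraction.

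With the replicate number as a block, 16 members passed at 20 h against PBS, 15 of them the same, and 14 against Fgf7, 1 and 1 at 5 h, 5 for the difference of effects between 20 h and 5 h, 9 for that between 20 h and 1 h, 7 of them among the 8, and 0 elsewhere. The labels tie a number to no animal, batch or day, and over 30 pairs of samples with the same number and time the deviations from the group means had a median correlation of 0.18, with 22 pairs over 0.1, against a median of -0.07 and 16 of 72 for pairs of different number. Pairs of the same number were thus more alike than other pairs, although 8 were not over 0.1. The main fit did not take the numbers as pairs, and what samples of the same number share is not known. Of the 30 samples, 20 correlated best with a sample of their own number, and the count that chance would give was not worked out. Further background models and quantile normalisation were not run.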
